A study of Mus musculus with 6 samples.

Results

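The death receptor group described here comprised 10 genes, which were picked by symbol: the TRAIL receptor genes TNFRSF10A, TNFRSF10B and TNFRSF10D, the receptor genes FAS, TNFRSF1A and TNFRSF12A, the ligand gene TNFSF10, and FADD, CFLAR and CASP8, which encode proteins of the complex that forms under the receptors. All 10 were found among 17144 listed genes. RNA-seq had been run on 6 libraries of cells labelled SaOS2, a human osteosarcoma line, titled D or C with a number, which gave 3 D libraries and 3 C libraries. The series is about a compound called DDTC(I), but the labels give neither the meaning of the letters nor a dose or a time, so D and C are used as group names only and each difference is D over C. Separate cultures are not recorded for the libraries of a group, so a p-value reflects the spread between these libraries, which may be technical.

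Death receptors are cell surface proteins of the TNF receptor family whose inner part carries a death domain. When a ligand such as TRAIL, FAS ligand or TNF clusters them, they recruit adaptors, among them FADD, which gathers the initiator caspase encoded by CASP8. CFLAR encodes a catalytically inactive relative of that caspase, known as FLIP, which competes for places in the complex. Decoy receptors bind the ligand without passing on a death signal, and TNFRSF12A, the receptor for the ligand TWEAK, belongs to the same family but has no death domain.

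Total counts ranged from 18446443 to 19802340 in D and from 18532763 to 20602771 in C. Markers were read against the label. SaOS2 is known for strong alkaline phosphatase activity. The alkaline phosphatase gene ALPL had 9 to 15 counts per library in D and 8 to 13 in C. This goes against the label, which is kept here only as a name. The osteoblast regulator RUNX2 had 131 to 217 counts in D and 395 to 422 in C. Of 5 hematopoietic markers, 3 were above 3 counts throughout, and the summed level of the list was 443 to 482 CPM (counts per library, rescaled so that totals are equal) in D and 505 to 529 CPM in C, nearly all of it CD68. The leukocyte gene PTPRC had 2 to 3 counts in D and 2 to 8 in C. The summed level of 4 endothelial markers (3 above 3 counts throughout) was 11.7 to 12.8 CPM in D and 19.2 to 24.5 CPM in C, that of 4 epithelial markers (3 above 3 counts throughout) was 98.1 to 123 CPM in D and 83.5 to 92.8 CPM in C, and that of 3 adipocyte markers (2 above 3 counts throughout) was 0.606 to 1.14 CPM in D and 1.45 to 1.83 CPM in C. CDH5, an endothelial cadherin gene, had 9 to 11 counts in D and 81 to 101 in C, and the adipocyte gene ADIPOQ had 0 counts in every library but D replicate 3. The part of these differences in the results was not tested. In RNA from whole cultures, a change in the mix of cells and a change in RNA per cell cannot be told apart.

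In the group, 5 genes rose in D, and the ligand gene TNFSF10 and the receptor genes TNFRSF10A and TNFRSF10D were near the limit of detection in both groups. TNFRSF10B, the gene for the TRAIL receptor DR5, and TNFRSF12A rose 2.12-fold and 2.16-fold, CASP8 rose 1.73-fold, CFLAR 1.49-fold and FADD 1.39-fold. FAS and TNFRSF1A did not pass the test. Of the 10 genes, 7 passed the filter on low counts, each with at least 116 counts in every library. Counts were compared with the quasi-likelihood test of edgeR, and a call required p under 0.05 after Benjamini-Hochberg adjustment over the 12682 genes tested. By that rule 5 of the 7 were called higher, when 26.8% of all tested genes were, and 0 were called lower, when 27.7% were. At an unadjusted p under 0.05, 1 of the 7 was lower in edgeR and in limma-voom and 0 in DESeq2. The median log2 fold change was 0.57 over the 7 genes and −0.02 over all tested genes. For all 7, every D library lay on 1 side of every C library, which held for 62.7% of all tested genes. With library size only, a scaling that moved the median of all genes to −0.17, 4 were called higher and 2 lower.

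**Figure D1:**
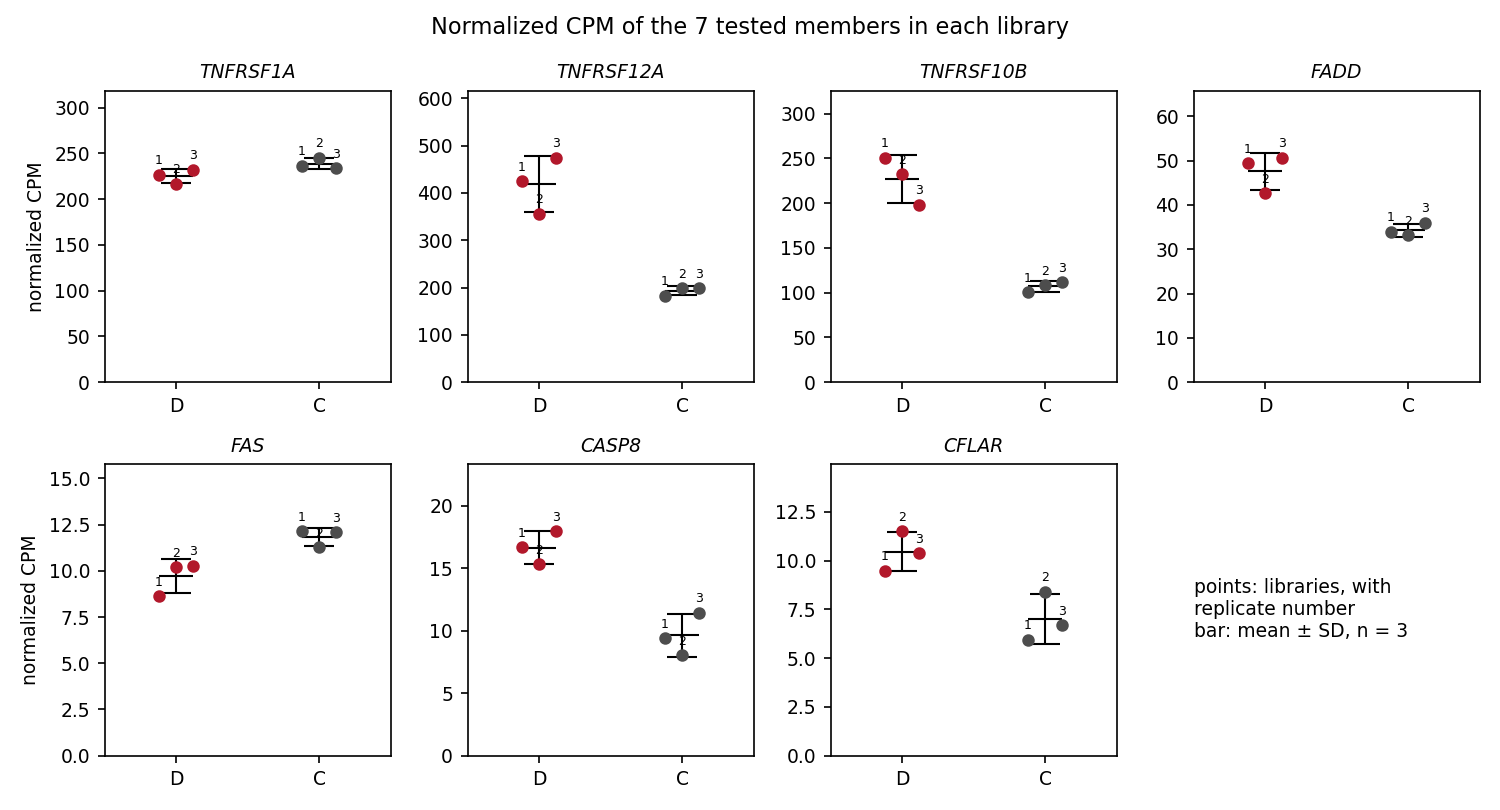
Normalized CPM (vertical axes, each from 0) of the 7 tested genes in the 3 D and the 3 C libraries, with 1 point per library, the replicate number beside it, and the mean ± SD as bars. The D points of TNFRSF10B lie between 198 and 251 CPM and its C points between 101 and 112 CPM, while the points of TNFRSF1A lie between 217 and 232 CPM in D and between 234 and 245 CPM in C.

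TNFSF10 encodes TRAIL, the ligand of the TNFRSF10 receptors. It had 5, 3 and 1 counts in D replicates 1, 2 and 3, against 9, 12 and 5 in C. The groups overlapped at 5 counts. Summed over libraries this was 9 counts in D and 26 in C, a ratio per total count of 0.356 with a 95% exact interval of 0.147 to 0.783 that covers counting error only. TNFSF10 was left out of the test by the filter. Without any filter its adjusted p was 0.098 in edgeR. Genes for ligands of the other receptors were also scarce: the FAS ligand gene FASLG had 1 count in D and 1 in C over all libraries, TNF had 14 in D and 3 in C, and the TWEAK gene TNFSF12 had 0 in D and 2 in C. In a single library, 3 counts, taken as the floor, were worth 0.146 to 0.163 CPM.

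TNFRSF10B was the one TRAIL receptor gene of the group with more than a handful of reads. Its normalized CPM was 251, 232 and 198 in D replicates 1, 2 and 3, against 101, 108 and 112 in C. The lowest D library, replicate 3, was well above the highest C library. The mean was 227 ± 26.6 CPM in D and 107 ± 5.74 CPM in C (SD, n = 3), with a log2 fold change of 1.09 ± 0.12 (SE; adjusted p = 0.00013, edgeR). Of all tested genes, 92.7% had a lower log2 fold change. The spread between D libraries was wider than between C libraries.

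TNFRSF10A encodes DR4, the second TRAIL receptor with a death domain. It had 2, 8 and 3 counts in D replicates 1, 2 and 3, against 2, 1 and 1 in C, and D replicate 2 was the only library above 3 counts. The summed counts, 13 in D and 4 in C, gave a ratio of 3.34 with an exact 95% counting interval of 1.03 to 14.1, and the unfiltered edgeR fit gave an adjusted p of 0.095. TNFRSF10D, a gene for a decoy receptor with a truncated death domain, had 0, 1 and 3 counts in D and 1, 0 and 0 in C, so no fold is given.

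TNFRSF10C, the gene for a decoy receptor held in the membrane by a lipid anchor, is not in the group but was read with it. It had 2.26, 1.67 and 2.10 CPM in D and 2.31, 3.0 and 2.42 CPM in C. Its log2 fold change was −0.36 ± 0.20 and was not called (adjusted p = 0.16, edgeR), although it was called with the length trend removed (−0.52) and on the filtered log2(FPKM + 1) and log2(FPKM + 0.1) scales (−0.32 and −0.48). The share of TNFRSF10B in the summed FPKM of the 4 TRAIL receptor genes, a per-length scale, was 97.4%, 97.7% and 96.8% in D replicates 1, 2 and 3, against 93.7%, 92.6% and 94.1% in C. Each D share was above each C share. The means were 97.3% ± 0.44 in D and 93.5% ± 0.79 in C (SD, n = 3), a difference of 3.87 percentage points with an exact 2-sided permutation p of 0.1, the smallest that 3 against 3 allows. Over TNFRSF10A and TNFRSF10B alone, the share was 99.7% to 99.9% in D and 99.8% to 99.9% in C, and its difference had the other sign (−0.061 percentage points). The TRAIL receptor genes are related in sequence, and how reads shared between related genes were counted is not given in the sources used here.

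FAS encodes the receptor for FAS ligand. It had 8.63, 10.2 and 10.3 CPM in D replicates 1, 2 and 3, against 12.1, 11.3 and 12.1 CPM in C. The D libraries lay below the C libraries without overlap. The log2 fold change, −0.29 ± 0.12, was not called (adjusted p = 0.080, edgeR). With library size only it was −0.44 and was called (adjusted p = 0.015), and after correction for length trends it was −0.07 (adjusted p = 0.68). FAS is a long gene model at 8010 bp.

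TNFRSF1A encodes TNFR1, the main receptor for TNF. Its level was 227, 217 and 232 CPM in D and 237, 245 and 234 CPM in C. The highest D library, at 232 CPM, was just below the lowest C library, at 234 CPM. Its log2 fold change was −0.08 ± 0.09 and was not called (adjusted p = 0.47, edgeR), but with library size only it was −0.24 and was called (adjusted p = 0.043).

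TNFRSF12A, the TWEAK receptor gene, was at 425, 356 and 474 CPM in D replicates 1, 2 and 3, against 183, 199 and 198 CPM in C. All D libraries were above all C libraries, and replicate 2 was the lowest of D. The means were 419 ± 59.6 CPM in D and 193 ± 9.01 CPM in C (SD, n = 3), and the log2 fold change was 1.11 ± 0.13 (adjusted p = 0.00016, edgeR). It had the shortest gene model of the group, 977 bp, and the D libraries differed along gene length. Slopes on log2 length were taken from the deviation of each gene's log2 CPM from its D mean. They were 0.01, 0.17 and −0.18 in D replicates 1, 2 and 3. TNFRSF12A was highest in replicate 3 and lowest in replicate 2. With the length trend removed its log2 fold change was 0.89, still called (adjusted p = 3.9e-05).

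**Figure D2:**
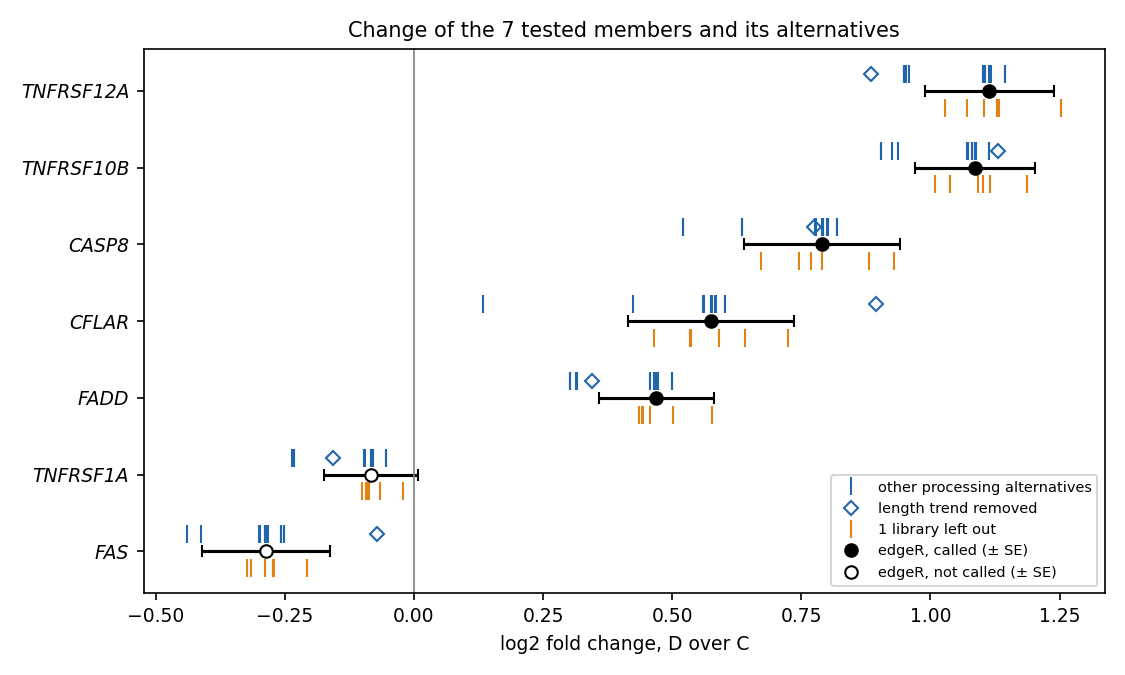
Log2 fold change of D over C (horizontal axis) for the 7 tested genes, as edgeR estimates ± SE (circles, filled where called), with the values from leaving out 1 library (orange ticks), from other processing alternatives (blue ticks) and with the length trend removed (diamonds). TNFRSF12A and TNFRSF10B stay above 0.88 in every alternative shown, and CFLAR runs from 0.13 on the log2(FPKM + 1) scale to 0.89 with the length trend removed.

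FADD, CASP8 and CFLAR, the genes of the group for the complex under the receptors, rose in D. FADD, the adaptor gene, had 49.4, 42.7 and 50.7 CPM in D replicates 1, 2 and 3, against 33.9, 33.1 and 36.0 CPM in C. Every D library was above every C library. Its log2 fold change was 0.47 ± 0.11 (adjusted p = 0.0072, edgeR), and it was 0.30 on the log2(FPKM + 1) scale, still called.

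CASP8, the initiator caspase gene, was at 16.7, 15.3 and 17.9 CPM in D and 9.38, 8.04 and 11.4 CPM in C. The groups were apart, with C replicate 3 the nearest to D. The means were 16.6 ± 1.32 CPM in D and 9.61 ± 1.70 CPM in C (SD, n = 3), with a log2 fold change of 0.79 ± 0.15 (adjusted p = 0.0025, edgeR), and it was 0.52 on the log2(FPKM + 1) scale.

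CFLAR, the gene for the inhibitor FLIP, was at 9.48, 11.5 and 10.4 CPM in D replicates 1, 2 and 3, against 5.94, 8.41 and 6.68 CPM in C. The gap between the groups was narrow, with C replicate 2 at 8.41 CPM and D replicate 1 at 9.48 CPM. Its log2 fold change was 0.57 ± 0.16 (adjusted p = 0.015, edgeR), and of the 5 calls it was the only one that was lost under any of the alternatives run. It did not pass an adjusted p under 0.01, and it was also lost without C replicate 1 (0.47, adjusted p = 0.070), without C replicate 3 (0.54, adjusted p = 0.060), with library size only (0.42, adjusted p = 0.054) and on the unfiltered log2(FPKM + 1) scale (0.13, adjusted p = 0.072). CFLAR had the longest gene model, 18974 bp, and with the length trend removed its log2 fold change was 0.89 (adjusted p = 0.0057). Counts per gene do not separate the long and short forms of FLIP.

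The balance of inhibitor to caspase differed between the groups by less than the spread of the C libraries. The ratio of CFLAR to CASP8 on the FPKM scale was 0.0903, 0.119 and 0.0919 in D replicates 1, 2 and 3, against 0.101, 0.166 and 0.0928 in C. The groups overlapped, and replicate 2 had the highest ratio of each. On the log2 scale the ratio averaged −3.33 ± 0.22 in D and −3.11 ± 0.45 in C (SD, n = 3), a difference of −0.22 with an exact 2-sided permutation p of 0.5. Without C replicate 2 the difference was 0.045, the other sign.

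**Figure D3:**
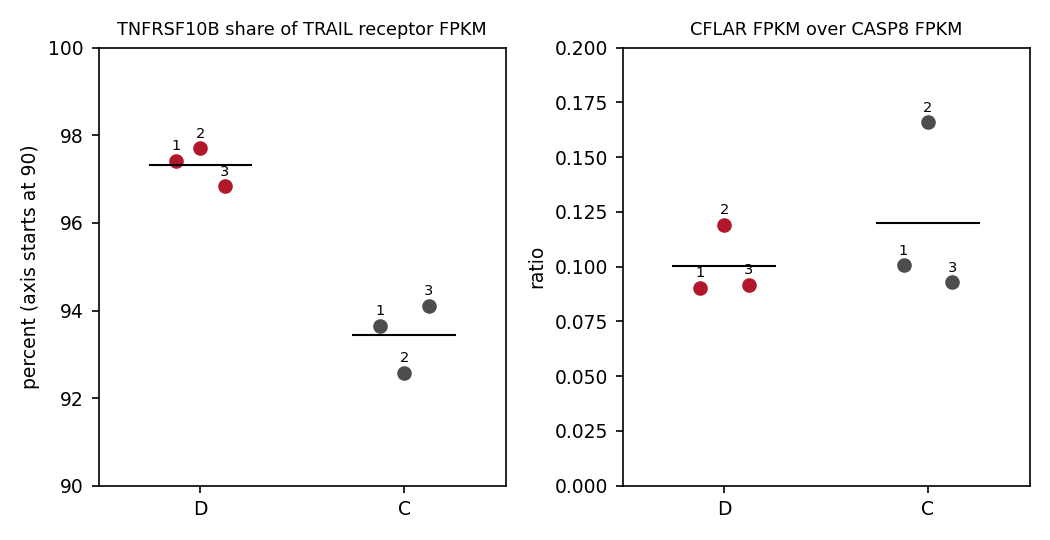
Left, the share of TNFRSF10B in the summed FPKM of TNFRSF10A, TNFRSF10B, TNFRSF10C and TNFRSF10D, in percent on an axis that starts at 90; right, the ratio of CFLAR to CASP8 FPKM. Points are libraries with their replicate number and lines are means of 3. The D shares (96.8% to 97.7%) lie above the C shares (92.6% to 94.1%), while the ratios of D and C overlap.

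Levels of the genes were compared per length, in FPKM. The order of the 7 tested genes was the same in both groups: TNFRSF12A, TNFRSF1A, TNFRSF10B, FADD, CASP8, FAS and CFLAR, and in neither group did neighbours in this order overlap between libraries. Mean FPKM went down from 405 ± 46.7 for TNFRSF12A through 93.2 ± 1.65 for TNFRSF1A, 54.0 ± 7.74 for TNFRSF10B, 26.4 ± 1.88 for FADD, 5.23 ± 0.27 for CASP8 and 1.15 ± 0.10 for FAS to 0.523 ± 0.057 for CFLAR in D. The same genes were at 209 ± 9.84, 110 ± 2.39, 28.2 ± 1.57, 21.2 ± 0.98, 3.37 ± 0.61, 1.56 ± 0.068 and 0.389 ± 0.069 FPKM in C (SD, n = 3). The other 3 genes were below 0.2 FPKM in every library, and in D they overlapped each other. In D, TNFRSF12A was above 99.1% of listed genes in mean FPKM, TNFRSF10B above 93.1% and CFLAR above 35.6%, and in C these shares were 98.5%, 86.7% and 32.3%.

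The distances between receptors differed in size between the groups. TNFRSF12A exceeded TNFRSF1A 4.40, 3.84 and 4.79 times in D replicates 1, 2 and 3, against 1.81, 1.90 and 1.99 times in C, on the FPKM scale. TNFRSF10B stood at 0.633, 0.613 and 0.489 of TNFRSF1A in D, against 0.244, 0.253 and 0.274 in C. Neither ratio overlapped between the groups. TNFRSF10B was 58.2, 45.6 and 38.6 times FAS in D and 16.6, 19.3 and 18.6 times FAS in C. These ratios were chosen after the levels had been seen and carry no test.

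**Figure D4:**
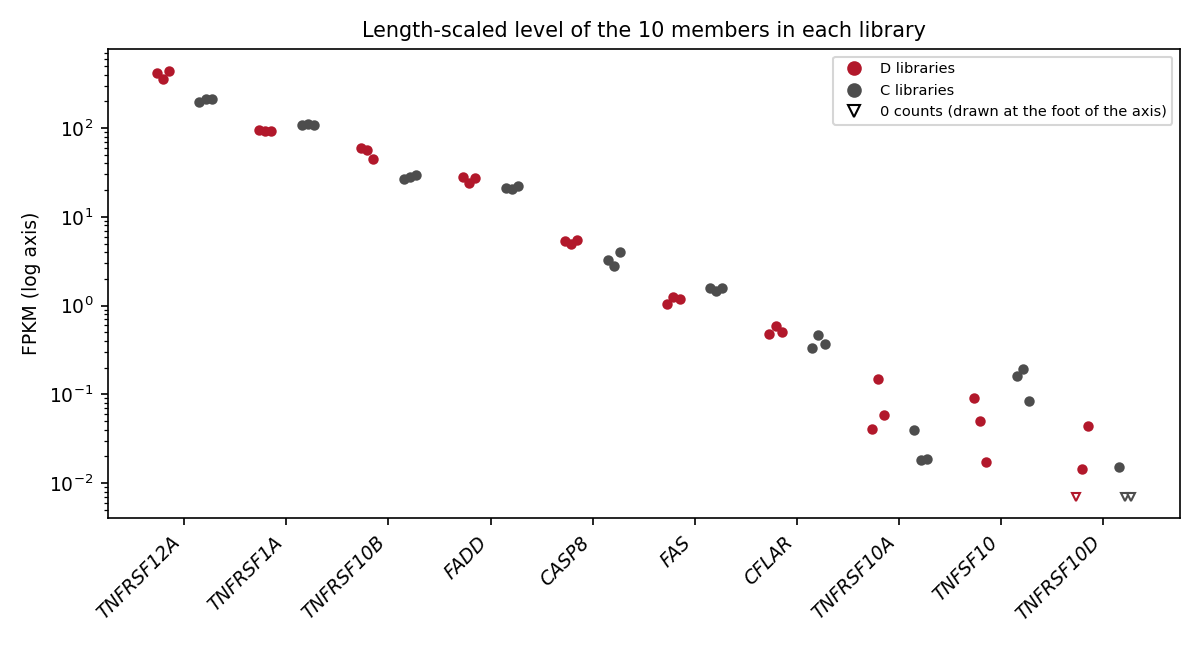
FPKM (log axis) of the 10 genes in each library, D left of C for each gene, ordered by mean FPKM in D, with open triangles at the foot of the axis for libraries with 0 counts. The 7 genes on the left keep their order in both groups, from TNFRSF12A (353 to 444 FPKM in D, 197 to 215 FPKM in C) to CFLAR (0.480 to 0.588 FPKM in D, 0.330 to 0.466 FPKM in C).

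Around these genes, 75 others of the pathway were read in 6 lists, of which 74 were listed in the files and 60 tested. Of the 60, 25 were called higher (41.7%, against 26.8% of all tested genes) and 8 lower (13.3%, against 27.7%). The 25 include TNFRSF14 and LTA, which passed the filter only through the D libraries and so lend nothing to this count. With library size only, 20 were higher and 14 lower. The median log2 fold change of the 60 was 0.26. The medians of the lists ran from −0.36 for other receptors to 1.85 for other ligands. The ligand median is over only 3 tested genes, among them LTA, which was kept only through the D libraries. The log2(FPKM + 1) scale rests on library size only, and its pseudocount also shrinks the changes of low genes. On that scale the values of TNFRSF9 (0.45), TNFRSF25 (−0.74), RIPK1 (0.68), LTA (0.27), TNFRSF14 (0.17) and TP63 (−0.36) differed by over 1.5 times from those given below. All 6 were still called.

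Of 9 tested genes among 13 other TNF receptor family genes, 4 fell (44.4%, when 27.7% of all tested genes were called lower) and 2 rose (22.2%, near the 26.8% of all tested genes called higher), with a median of −0.36. NGFR, which encodes the p75 neurotrophin receptor, fell to 17.0 ± 2.54 CPM in D, against 46.4 ± 7.34 CPM in C (log2 fold change −1.45 ± 0.16). TNFRSF21, the gene for DR6, was at 98.7 ± 17.5 CPM in D and 226 ± 14.4 CPM in C (−1.20 ± 0.14), and TNFRSF19, a receptor gene without a death domain, at 10.4 ± 1.49 CPM in D and 20.6 ± 1.29 CPM in C (−0.98 ± 0.14). The fourth fall was TNFRSF25, the gene for DR3 (−1.28 ± 0.23), named after its value was seen. NGFR, TNFRSF21 and TNFRSF25 encode receptors with a death domain, as do FAS, TNFRSF1A and TNFRSF10B. TNFRSF9, a costimulatory receptor gene, rose to 24.9 ± 3.82 CPM in D, against 14.6 ± 1.23 CPM in C (0.77 ± 0.14). TNFRSF14 had 13, 20 and 18 counts in D, against 6, 15 and 7 in C, and passed the filter only through the D libraries, so it lends nothing to the count of rises. The call on it (1.05 ± 0.37) did not hold without C replicate 1 (0.85), C replicate 3 (0.87), D replicate 2 (0.99) or D replicate 3 (0.99), in DESeq2 (1.09) and with library size only (0.90).

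Of 9 other ligand genes of the family, 3 passed the filter on low counts, and 2 of these were called higher, when 26.8% of all tested genes were. TNFSF9, the ligand gene of the receptor encoded by TNFRSF9, was at 46.2, 36.9 and 51.7 CPM in D, against 13.3, 13.0 and 11.0 CPM in C (log2 fold change 1.85 ± 0.16, adjusted p = 4.3e-05, edgeR). All D libraries were above all C libraries. LTA, the lymphotoxin alpha gene, had 14, 15 and 11 counts in D, against 2, 6 and 3 in C (2.02 ± 0.40). LTA passed the filter only through the D libraries, where it is high, so its call lends nothing to the count of this list.

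Among 20 adaptors and ubiquitin regulators of the receptor complexes, 9 of 19 tested genes rose (47.4%, against 26.8% of all tested genes), 1 fell (5.26%, against 27.7%) and 9 were not called (median 0.30). PEA15, a death effector domain protein known to bind FADD, rose to 1037 ± 22.2 CPM in D, against 451 ± 9.59 CPM in C (1.20 ± 0.10). RBCK1, the HOIL-1 subunit of the ligase complex that makes linear ubiquitin chains, was at 144 ± 23.6 CPM in D and 70.5 ± 1.96 CPM in C (1.03 ± 0.13), and the adaptor gene TRAF1 at 47.9 ± 7.16 CPM in D and 24.1 ± 1.99 CPM in C (0.99 ± 0.14). RIPK1, the kinase gene of the TNFR1 complex, was named after its value was seen and rose by 1.05 ± 0.20. BIRC3, the gene of the cIAP2 ubiquitin ligase, fell by 0.43 on the log2 scale, and this call was lost without C replicate 3 (−0.40), without D replicate 1 (−0.39) and under the replicate block (−0.43, adjusted p = 0.054).

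Downstream, 4 of 8 tested genes among 9 caspases and effectors rose, when 26.8% of all tested genes did, and 0 fell, when 27.7% did (0 also at an unadjusted p under 0.05 in edgeR, DESeq2 and limma-voom), and the 3 named here had log2 fold changes of 0.56 to 0.62. They were MLKL, the effector of necroptosis (43.0 ± 3.21 CPM in D and 27.9 ± 3.51 CPM in C), DIABLO, whose product antagonises inhibitors of apoptosis (67.6 ± 8.22 CPM in D and 46.0 ± 5.22 CPM in C), and BID, a substrate of caspase-8 that links the receptors to mitochondria (62.8 ± 10.8 CPM in D and 42.6 ± 2.77 CPM in C). BID was added with its value known. RIPK3, the kinase that acts on MLKL, had 2 counts in D and 0 in C over all libraries.

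**Figure D5:**
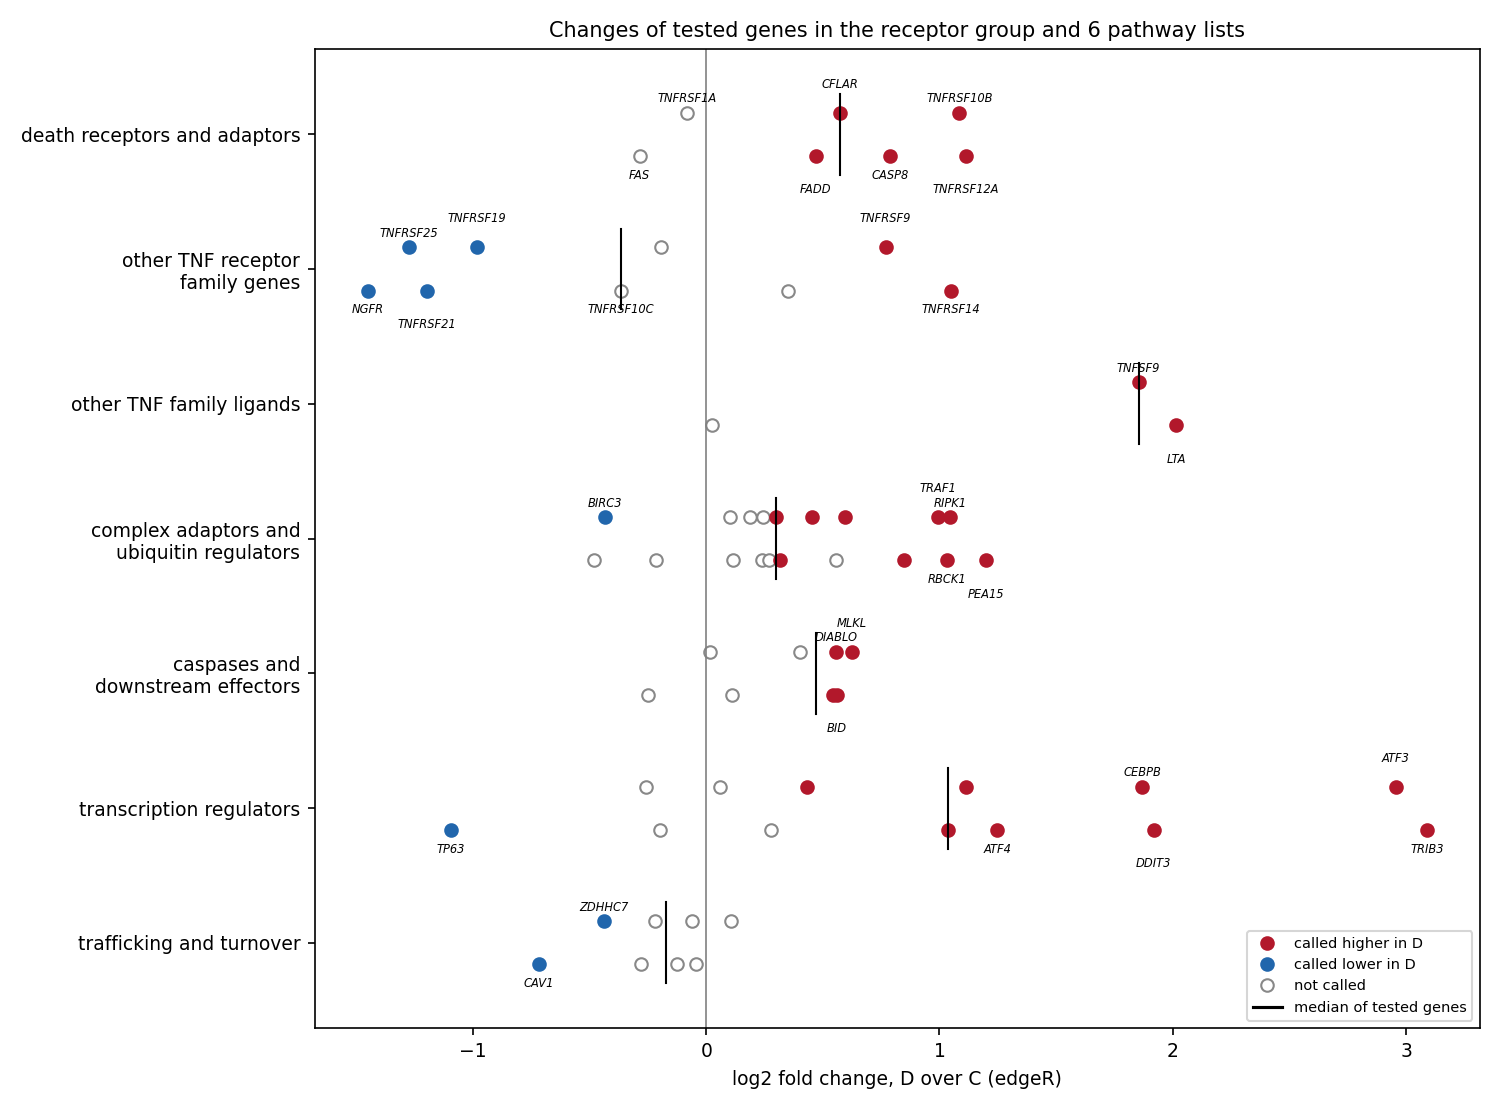
Log2 fold change of D over C (horizontal axis) of each tested gene in the receptor group and in the 6 pathway lists (rows), with filled circles for genes called higher (red) or lower (blue), open circles for genes not called, and a black line at the median of the tested genes of a row. TRIB3 and ATF3 lie near 3, while NGFR, TNFRSF25 and TNFRSF21 lie below −1.

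Genes for transcription factors known to act on death receptor genes, and their partners, held the largest changes of the 6 lists: 8 of 13 tested genes rose (61.5%, against 26.8% of all tested genes) and 1 fell (7.69%, against 27.7%), with a median of 1.04. TRIB3, a stress-induced pseudokinase gene, rose to 453 ± 76.2 CPM in D, against 53.2 ± 3.53 CPM in C (3.09 ± 0.15), ATF3 to 71.2 ± 5.54 CPM in D, against 9.18 ± 1.07 CPM in C (2.96 ± 0.13), and CEBPB to 132 ± 29.7 CPM in D, against 36.0 ± 1.17 CPM in C (1.87 ± 0.16). DDIT3, which encodes CHOP, a factor known to activate TNFRSF10B, was at 169, 146 and 226 CPM in D, against 53.9, 54.6 and 34.9 CPM in C (1.92 ± 0.22), and ATF4 rose by 1.25 ± 0.14. DDIT3 and ATF4 were named after their values were seen. TP63, a transcription factor gene of epithelial development, fell to 1.95 ± 0.50 CPM in D, against 4.19 ± 0.99 CPM in C (−1.10 ± 0.25).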

How the data were processed

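Per the file headers, the authors deposited 1 count file and 1 FPKM file per library, listed by gene symbol. The deposited counts are whole numbers without normalization. The deposited FPKM values equal the count over the library total and over 1 implied length per gene, shared by all libraries, in 17144 of 17144 genes (relative tolerance 0.001), and these lengths are used here. For the aligner, the counter and strand use, nothing is given in the sources used here. The labels name the mouse, and the submitters' processing notes name GRCm38 and mm10, but the symbols are human (16 match a mouse symbol exactly), so no coordinates or sequences are given.

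Genes were filtered with filterByExpr (12682 kept, 4462 left out), scaled with TMM factors and tested with edgeR 4.0.16 in R 4.3.3 (glmQLFit and glmQLFTest, 2-sided, group as the only term), with p-values adjusted over all tested genes. SE is the log2 fold change over the square root of F. CPM values are TMM-normalized, except marker sums and floors, which use library totals. Single shares and ratios were tested by exact permutation. Alternatives used DESeq2 1.42.0, limma 3.58.1, other factors and filters, an adjusted p of 0.01, the replicate block, the 20 most abundant genes or 1 library left out, a lowess length correction (span 0.4) and log2(FPKM + 1) or log2(FPKM + 0.1). The edgeR, DESeq2, voom and length-corrected fits were checked on simulated counts that held no length trend. That check cannot show how well the length correction removes such a trend. The fits on the FPKM scales were not checked in this way.

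The group and the lists were chosen with earlier results of these data known. All genes of the group are named, and up to 3 called genes per direction from each list, in order of p; some genes of the lists are counted but not reported here by name. Pairs of libraries within a group differed by more than sampling noise. Chi-square per degree of freedom was 6.21 to 13.4 for pairs of C libraries and 20.5 to 90.5 for pairs of D libraries. D replicates 2 and 3 were the furthest apart.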

Additional observations from a re-analysis of the deposited data

How the results depend on the processing

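The numbers of genes in the receptor group and in the pathway lists called higher stayed within 1.5 times under the 20 alternatives: 4 to 5 of the group and 18 to 30 of the pathway. With library size only, the group had 2 genes called lower in place of 0 and the pathway 14 in place of 8. On the FPKM scales the group also had 2, FAS and TNFRSF1A, and the pathway 14, 13 and 14 (log2(FPKM + 1), log2(FPKM + 0.1), and log2(FPKM + 1) without a filter). These 4 settings scale by library totals only, with neither TMM factors nor scaling factors of another kind. Leaving out 1 library gave 4 to 5 of the group higher and 0 lower, and 19 to 28 of the pathway higher and 6 to 10 lower. The TNFRSF10B share differed by 3.44 to 4.20 percentage points with 1 library left out, by 1.41 without length scaling and by −0.061 over TNFRSF10A and TNFRSF10B only. The log2 ratio of CFLAR to CASP8 differed by −0.37 to 0.045 with 1 library left out, the highest without C replicate 2, and the cause was not tested. Same-numbered libraries did not deviate together (correlations 0.0084, −0.40 and −0.37). The labels do not say whether the numbers pair the samples, and so few correlations cannot decide it. Under the replicate block, 5 genes of the group were called higher and 0 lower, and 21 and 7 of the pathway. The block left the share difference at 3.87 and the ratio difference at −0.22. CFLAR had no value on the filtered FPKM scales, since its FPKM was below 1. TNFSF10, TNFRSF10A and TNFRSF10D are limited by depth, with at most 12 counts in a library.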

Other observations

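Genes that act on the death receptor proteins after their synthesis, by glycosylation, transport or ubiquitin ligation, were read as a list of 10. Of these 9 were listed and 8 tested, of which 0 were called higher, when 26.8% of all tested genes were, and 2 lower in edgeR (median log2 fold change −0.17). Over all tested genes 27.7% were called lower, so 2 of 8 is close to the background. At an unadjusted p under 0.05, 0 were higher in edgeR, DESeq2 or limma-voom. CAV1, the gene of the membrane scaffold caveolin, fell to 1316, 1422 and 1545 CPM in D replicates 1, 2 and 3, against 2306, 2348 and 2390 CPM in C (−0.72 ± 0.11, adjusted p = 0.00074, edgeR). All D libraries were below all C libraries. ZDHHC7, a gene of a palmitoyl transferase, was at 129 ± 18.0 CPM in D and 174 ± 4.38 CPM in C (−0.44 ± 0.12, SE), a call that did not hold without C replicate 3 (−0.42, adjusted p = 0.053, edgeR). GALNT3, a glycosyltransferase gene, had 1 count in D and 2 in C over all libraries.

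The genes most like TNFRSF12A were sought among 9451 other tested genes whose mean log2 CPM was 3 or more. Likeness was the root mean square difference of log2(CPM + 0.1), taken from the C mean, over the 6 libraries. The nearest were KIFC3 (0.029), MRTO4 (0.045), AKT1S1 (0.046), RAE1 (0.048) and PES1 (0.050), with log2 fold changes of 1.07 to 1.14. The points share their libraries, so this is a description. TNFRSF12A was taken because its log2 fold change in edgeR was the highest of the group, by less than 1 SE over TNFRSF10B (1.11 ± 0.13 and 1.09 ± 0.12). TNFRSF10B was the higher of the pair without D replicate 3 (1.19, against 1.03) and with the length trend removed (1.13, against 0.89).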
